A study of Saccharomyces cerevisiae with 16 samples.

Results

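The 5 genes *TIF1*, *TIF2*, *TIF3*, *DED1* and *DBP1* encode the mRNA-unwinding machinery of translation initiation in *Saccharomyces cerevisiae*. They were chosen by name, by their identifiers YKR059W, YJL138C, YPR163C, YOR204W and YPL119C, out of the 5647 genes that were counted in all 16 libraries. All 5 passed the filter on low counts in both strain backgrounds. Ribosome profiling, which sequences the stretches of mRNA that ribosomes shield from nuclease (footprints) beside the total mRNA, was applied to *eIF3a/b Degron* and *eIF3i DDKK* mutants and to the isogenic WT of each. Each strain gave 2 cultures, so that each background held 8 libraries. All cultures received cycloheximide shortly before harvest, per the paper's methods.

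The *eIF3a/b Degron* mutant (YAJ34) carries degron-tagged alleles of the genes for eIF3a (*tif32td*) and eIF3b (*prt1td*, with DHFRts) under the *CUP1* promoter. Its WT (YAJ3) carries pRS316, and both strains have a disrupted *gcn2* (gcn2::hisG) and *UBR1* under the *GAL1* promoter (PGAL1-myc-UBR1). Both were moved from raffinose medium with copper at 25°C to raffinose and galactose medium with the copper chelator BCS at 36°C. The shift lasted 90 min, so the WT also received the inducer and the heat. The *eIF3i DDKK* mutant and its WT are H450 cells, a *tif34* deletion with *GCN2* at *ura3-52*, that carry a single-copy plasmid of either TIF34-D207K-D224K-HA or TIF34-HA, and both were moved from 30°C to 37°C for 30 min in SC medium. The H450 genotype in the labels also lists high-copy *TIF34* on a *URA3* plasmid in mutant and WT alike, and the labels do not say whether that plasmid was still present at harvest. Strain genotype (including *GCN2* and *UBR1*), medium, temperature and time differ between the backgrounds, so each mutant was compared with its own WT. No spike-in was used, so every change is a change in share and not in absolute output. The paper chose shift times that strongly lowered bulk translation in the mutants, and proposes that most mRNAs probably lost absolute TE in both.

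eIF4A is the founding DEAD-box RNA helicase. It unwinds structure near the capped 5′ end of an mRNA as part of eIF4F, together with the cap-binding protein eIF4E and the scaffold eIF4G, and so prepares a landing site for the 43S pre-initiation complex. In yeast 2 genes, *TIF1* and *TIF2*, encode eIF4A, and *TIF3* encodes eIF4B, an RNA-binding cofactor that is not a helicase and that stimulates eIF4A. Ded1 is another, more potent DEAD-box helicase that is needed above all for mRNAs with long and structured 5′-untranslated regions, and *DBP1* encodes its low-abundance paralog, which can replace Ded1 when it is made in excess.

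The sequences of the 5 coding regions set what the counts can tell apart, and they were read from the RefSeq R64 genome, the build that the labels call sacCer3. Each member is a single coding exon that no other annotated coding sequence overlaps. *TIF1* lies on chromosome XI at 554987 to 556174 on the plus strand and *TIF2* on chromosome X at 153504 to 154691 on the minus strand. *TIF3* (868645 to 869955) and *DBP1* (324411 to 326264) lie on the minus strand of chromosome XVI, and *DED1* lies on the plus strand of chromosome XV at 722911 to 724725. The counted region of each gene was 60 nt shorter than its coding sequence, which leaves out the first 15 and the last 5 codons.

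The coding sequences of *TIF1* and *TIF2* differ at 6 of 1188 positions (99.5% identity), 5 of them in the counted 1128 nt, and the 2 proteins of 395 residues are identical. The longest stretch without a difference runs for 644 nt, from position 229 to 872 of the coding sequence. Of the 1101 windows of 28 nt, about the length of a footprint, that fit in the counted region, 1023 (92.9%) occur in both genes. The window with the most differences, at positions 201 to 228, is shown with the differing bases in capitals, since a footprint from such a window can be given to its gene while one from the shared windows cannot:
TIF1: atctggtactggtaagaccggtacCttT
TIF2: atctggtactggtaagaccggtacTttC
How the authors' counting placed reads that match both genes is not given in the sources used here. The *TIF1* and *TIF2* values below are therefore 2 readings of largely shared sequence and not independent measurements.

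The helicases of the group share the motif that gives the family its name, and the codons for Asp-Glu-Ala-Asp are shown in capitals within 30 nt of each coding sequence:
TIF1: ttcatcttaGATGAAGCTGATgaaatgttg
TIF2: ttcatcttaGATGAAGCTGATgaaatgttg
DED1: ttggttctaGATGAAGCTGATagaatgttg
DBP1: ctggtattgGATGAGGCTGATagaatgcta
The motif begins at residue 170 of eIF4A, 306 of Ded1 and 318 of Dbp1, and it occurs 0 times in the 436 residues of eIF4B. The motif was also searched as these 4 residues in the translations of counted genes whose annotated coding sequence is a whole number of codons. It was present in 65 of 5450 (1.19%). Of the 22 other DEAD-box helicases described below, 19 held these residues, and *DBP7*, *DBP9* and *SUB2* did not. Ded1 (604 residues) and Dbp1 (617 residues) are identical at 436 of 637 aligned columns (68.4%), yet *DED1* and *DBP1* share 0 windows of 28 nt, so their reads can be told apart. Identity to eIF4A over all columns of an end-to-end alignment was 21.5% for Ded1 (130 of 605) and 21.8% for Dbp1 (135 of 618). These columns include gaps, since eIF4A has only 395 residues, so the values understate likeness within the aligned part.

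*TIF3* has repeats within its own coding sequence, and 84 of its windows (6.86%) occur in it more than once, although none occurs in another coding sequence. The window at positions 673 to 700, which is found again at 751 to 778, is shown as an example of reads that cannot be placed within *TIF3* but can be given to it:
TIF3: ccaagaagagaaagagaagaagttgata
The bases around the start codons are shown because the base at position −3 is part of the context that scanning ribosomes read, with that base and the start codon in capitals, from −6 to +4 counted from the A of the start codon as +1:
TIF1: tacAagATGt
TIF2: tgcAatATGt
TIF3: cacAtcATGg
DED1: catAttATGg
DBP1: gaaAaaATGg
All 5 members have A at −3, as did 3315 of the 5446 genes examined (60.9%).

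Footprint libraries held 18160621 to 20768634 reads in the Degron WT and 6157260 to 6493910 in its mutant, and 26747366 to 29982592 in the DDKK WT and 5136423 to 6177463 in its mutant. The range for mRNA was 6030299 to 10994187 reads per library (Degron) and 4389212 to 12164617 (DDKK). Reads on YDR445C made up 8.79 to 12.3% (Degron) and 17.4 to 29.9% (DDKK) of an mRNA library. *GCN2*, disrupted in the Degron strains, had 21 to 94 reads in their libraries against 284 to 1961 in the others. *TIF32* mRNA was 137 and 140 RPKM in the Degron WT and 185 and 181 in the mutant, while *TIF32* footprints were 137 and 141 against 43.6 and 44.9. Counts per gene cannot show which *TIF34* allele a DDKK library carries, and *TIF34* mRNA was 242 and 255 RPKM in that WT and 397 and 407 in the mutant. Cultures of the DDKK background varied more, with a biological coefficient of variation of 0.121 against 0.0483 in the Degron background, so that its intervals are wider throughout.

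In WT cells the members spanned a wide range of mRNA levels, given as RPKM (reads per kilobase of counted region, scaled to library size), with eIF4A mRNA near the top of the transcriptome and *DBP1* near the bottom. *TIF1* mRNA was 911 and 957 RPKM in the Degron WT cultures and 1020 and 859 in the DDKK WT cultures, rank 93 of 5306 and rank 106 of 5244 genes. *TIF2* was close behind at 860 and 898 RPKM in the Degron WT and 950 and 799.5 in the DDKK WT. The ranges of *TIF1* and *TIF2* did not overlap in the Degron WT but did in the DDKK WT, where the second culture was lower than the first for both. *DED1* followed at 296 and 307 RPKM in the Degron WT and 326 and 304 in the DDKK WT, and the *TIF1* level was 3.10 and 2.98 times that of *DED1*.
*TIF3* mRNA was 127 and 131 RPKM in the Degron WT and 111 and 127 in the DDKK WT. *DBP1* mRNA was only 18.7 and 19.0 RPKM in the Degron WT, rank 4861, and 9.42 and 10.7 in the DDKK WT, rank 5047. The order *TIF1*, *TIF2*, *DED1*, *TIF3*, *DBP1* was the same in the means of both WT strains, and apart from *TIF1* and *TIF2* no neighbours in that order overlapped. The mRNA of *DED1* thus exceeded that of its paralog *DBP1* by 16.0 times in the Degron WT and 31.3 times in the DDKK WT.

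**Figure D1:**
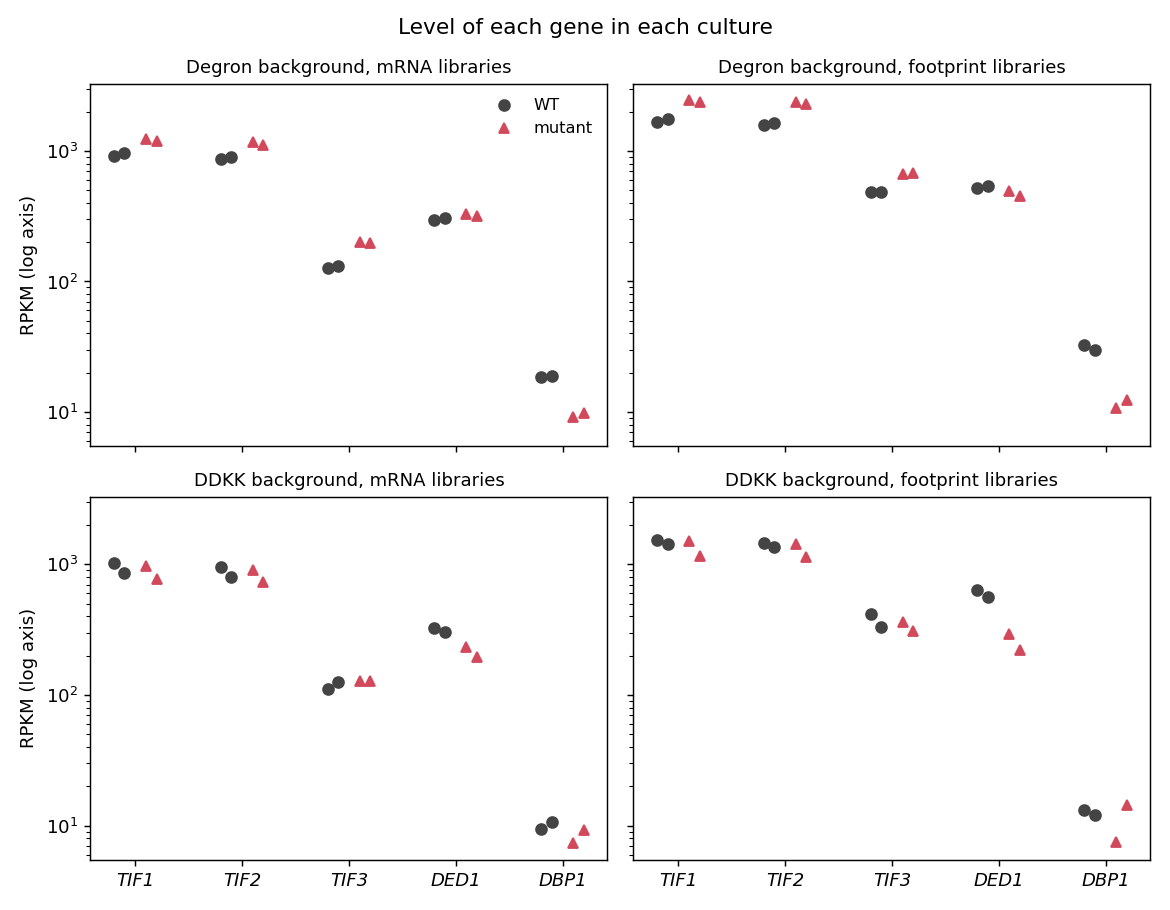
mRNA and footprint levels of the 5 genes in RPKM on a log axis, with 1 point per culture for WT and mutant of each background. *TIF1* and *TIF2* sit highest and *DBP1* lowest in every strain, at 9.42 to 19.0 RPKM of mRNA in the WT cultures.

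Translational efficiency (TE), here the footprint RPKM divided by the mRNA RPKM of the same culture, was above the median of all genes for each member in both WT strains. The median TE of all genes was 0.983 in the Degron WT and 1.02 in the DDKK WT. *TIF3* had by far the highest TE of the group, 3.79 and 3.67 in the Degron WT and 3.76 and 2.61 in the DDKK WT, above 95.2% and 94.8% of genes by the mean. The TE of *TIF1* was 1.82 in each Degron WT culture and 1.52 and 1.66 in the DDKK WT cultures. *DED1* lay near it, at 1.77 and 1.76 in the Degron WT and at 1.96 and 1.84 in the DDKK WT. *DBP1* had 1.76 and 1.56 in the Degron WT and 1.39 and 1.12 in the DDKK WT, so that its range met that of *DED1* in the Degron WT and lay below it in the DDKK WT. With its high TE, *TIF3* came close to *DED1* in footprints in the Degron WT (483 and 482 against 523 and 540 RPKM) although its mRNA level was lower. In the DDKK WT *TIF3* footprints stayed further below, at 416 and 331 against 638 and 560 RPKM.

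The share of *TIF1* in the reads of *TIF1* and *TIF2* together was between 50.7% and 51.8% in all 16 libraries. It was 51.3 to 51.8% in the mRNA libraries, 51.2 to 51.5% in WT footprints and 50.7 to 50.9% in mutant footprints. The widest exact 95% binomial interval, that of the mRNA of the second *eIF3i DDKK* culture, ran from 50.3 to 52.5%, and such intervals cover counting error only. The pair therefore gave almost the same change in every comparison below.

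The comparison of *eIF3a/b Degron* with its WT asks how the mRNA, ribosome occupancy and TE of these genes respond to loss of the eIF3 complex. mRNA for eIF4A and eIF4B rose, *DBP1* mRNA fell, and *DED1* mRNA did not pass the test. By edgeR's quasi-likelihood test with Benjamini-Hochberg adjustment over all 5306 genes tested, 3 members rose and 1 fell in mRNA at an adjusted p under 0.05, where 75.1% of all genes were called (44.3% higher and 30.8% lower). The call of a member is thus common in this background, and the size of each change says more than the call.

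*TIF3* had the largest increase in mRNA, from 127 and 131 RPKM in WT to 201 and 197 in the mutant, from raw counts of 1810 and 2261 (WT) and 1905 and 1782 (mutant). Mutant and WT cultures did not overlap in RPKM, and the fitted change was 0.62 on the log2 scale (SE 0.065, adjusted p = 9.32e-09 by edgeR). *TIF1* went from 911 and 957 to 1223 and 1184 RPKM and *TIF2* from 860 and 898 to 1160 and 1111, with each mutant culture above each WT culture. Their log2 changes were 0.37 each (SE 0.065, adjusted p = 2.28e-05 for *TIF1* and 1.88e-05 for *TIF2* by edgeR), and 0.37 with the reads of both genes summed. *DED1*, at 296 and 307 RPKM in WT and 329 and 316 in the mutant, had a log2 change of 0.10 (SE 0.067, adjusted p = 0.194 by edgeR), which is about the median change of all genes, 0.12. Its cultures did not overlap either, a separation that 86.8% of all genes showed in mRNA.

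*DBP1* moved the other way. Its mRNA was 18.7 and 19.0 RPKM in WT and 9.25 and 9.80 in the mutant, on 380 and 470 reads (WT) and 126 and 127 reads (mutant). The log2 change of mRNA was −0.99 (SE 0.12, adjusted p = 1.02e-07 by edgeR), and the mutant level lay above only 3.47% of genes. The paralogs therefore moved apart at the level of mRNA, and *DED1* exceeded *DBP1* by 33.9 times in the mutant against 16.0 times in WT.

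Footprints followed the mRNA for eIF4A and eIF4B and fell for both Ded1-type helicases. In footprints 3 members rose and 2 fell, where 83.2% of all genes were called (41.8% higher and 41.3% lower). All 5 also separated mutant from WT cultures, as 90.8% of all genes did in footprints. *TIF1* footprints rose from 1657 and 1745 RPKM to 2446 and 2350, a log2 change of 0.50 (SE 0.064, adjusted p = 1.90e-07 by edgeR). *TIF2* footprints rose from 1580 and 1645 to 2375 and 2279 (log2 change 0.53, adjusted p = 6.02e-08 by edgeR), and *TIF3* footprints rose from 483 and 482 to 668 and 671 (0.47, adjusted p = 1.70e-07 by edgeR). In each of these 3 genes the mutant cultures lay far above the WT cultures relative to the spread within a strain. *DED1* footprints, 523 and 540 RPKM in WT and 496 and 449 in the mutant, fell by 0.17 on the log2 scale (SE 0.066, adjusted p = 0.0222 by edgeR). That small change turned to 0.069 when libraries were scaled by their total reads alone, and the call was lost without either WT culture or without the second mutant culture (log2 changes between −0.24 and −0.087 over the fits that left out a culture, adjusted p 0.00512 to 0.344 by edgeR). *DBP1* footprints dropped from 32.8 and 29.7 RPKM to 10.7 and 12.4, a log2 change of −1.44 (SE 0.12, adjusted p = 4.54e-11 by edgeR), on 913 and 733 reads (WT) and 110 and 122 reads (mutant).

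**Figure D2:**
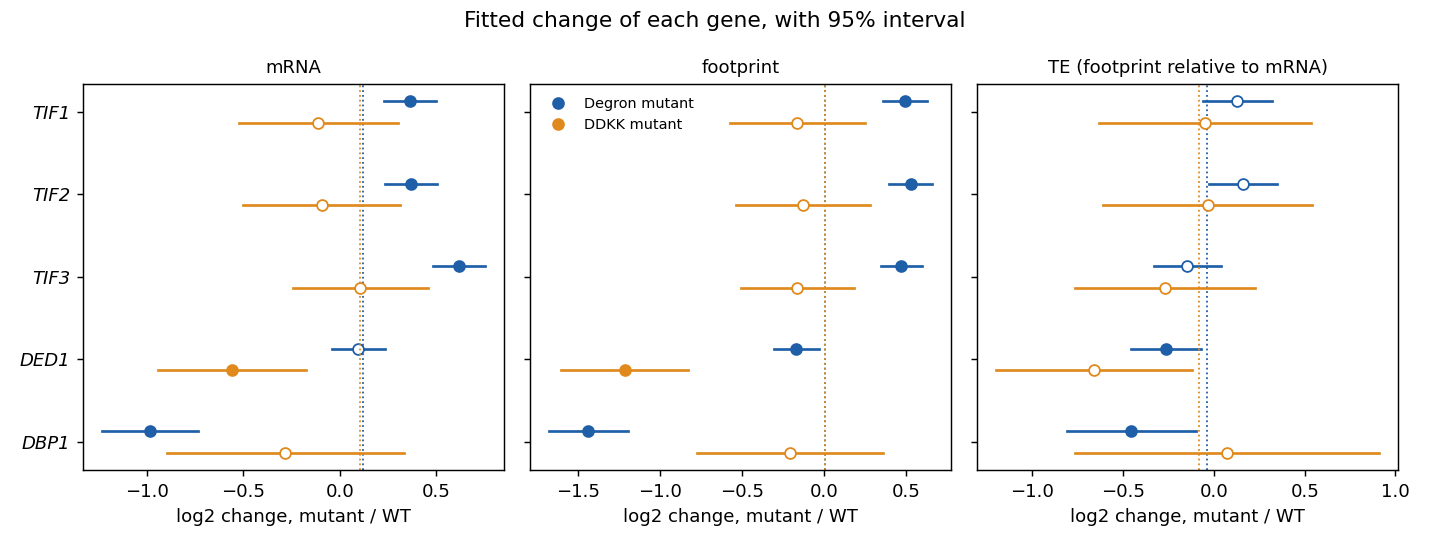
Fitted log2 changes, mutant over WT, of mRNA, footprints and TE for the 5 genes in each background, with 95% intervals, filled points past the test and dotted lines at the median of all genes. The *DBP1* footprint change of −1.44 in *eIF3a/b Degron* cells and the *DED1* footprint change of −1.22 in *eIF3i DDKK* cells are the largest of the members.

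The change of TE in the mutant relative to WT (∆TE_rel, the log2 change of footprints minus that of mRNA, tested as an interaction in the same model) was small for all 5 genes in *eIF3a/b Degron* cells. *DED1* and *DBP1* fell, 0 members rose and the other 3 did not pass the test, where 59.8% of all genes were called (26.8% higher and 33.1% lower). The TE of *DED1* was 1.77 and 1.76 in the WT cultures and 1.51 and 1.42 in the mutant cultures, and its ∆TE_rel was −0.26 (SE 0.094, 95% interval −0.46 to −0.071, adjusted p = 0.0185 by edgeR). The TE of *DBP1* was 1.76 and 1.56 in WT and 1.16 and 1.27 in the mutant, and its ∆TE_rel was −0.45 (SE 0.17, adjusted p = 0.0273 by edgeR). In both genes the mutant cultures lay below the WT cultures, and for *DBP1* most of the loss of footprints was in mRNA (−0.99 of −1.44).

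The members of the eIF4A and eIF4B branch had a relative TE close to that of WT. Such a share does not show that their absolute translation was kept. The TE of *TIF1* was 1.82 in each WT culture and 2.00 and 1.99 in the mutant (∆TE_rel 0.13, SE 0.091, 95% interval −0.059 to 0.32, adjusted p = 0.228 by edgeR). *TIF2* had 1.84 and 1.83 in WT and 2.05 in each mutant culture (∆TE_rel 0.16, 95% interval −0.028 to 0.35, adjusted p = 0.133 by edgeR). *TIF3* had 3.79 and 3.67 in WT and 3.33 and 3.40 in the mutant (∆TE_rel −0.15, SE 0.089, 95% interval −0.33 to 0.037, adjusted p = 0.159 by edgeR). All 5 members thus had WT and mutant cultures that did not overlap in TE, as 80.3% of all genes did, yet the intervals of *TIF1*, *TIF2* and *TIF3* include 0.

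**Figure D3:**
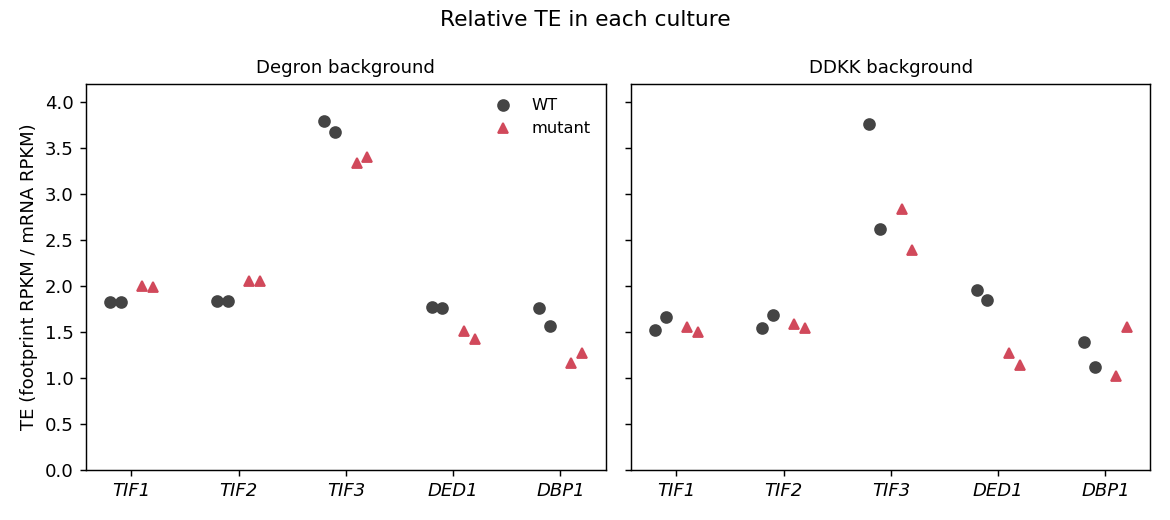
TE of each of the 5 genes by culture, with WT and mutant of each background side by side. In *eIF3a/b Degron* cells the mutant points of *DED1* (1.51 and 1.42) and *DBP1* (1.16 and 1.27) lie below the WT points, and in *eIF3i DDKK* cells only *DED1* has TE values that do not overlap.

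Which members passed the TE test in *eIF3a/b Degron* cells depended on the scaling of the libraries and on blocking by culture. Scaling by total reads alone moved the median ∆TE_rel of all genes from −0.036 to 0.28, and then *TIF1* (0.44) and *TIF2* (0.47) rose, *DED1* was at 0.047 and *DBP1* at −0.14, and neither of these passed the test. Scaling within each assay, with a median of 0.095, likewise called *TIF1* (0.26) and *TIF2* (0.29) higher and neither *DED1* nor *DBP1*, and DESeq2 called *TIF2* alone (0.20, adjusted p = 0.0411 by DESeq2). With each culture as a block *TIF2* rose (0.16, adjusted p = 0.0311 by edgeR) beside the fall of *DED1* and *DBP1*. Taken from the median over all genes tested, the values were *DBP1* −0.42, *DED1* −0.23, *TIF3* −0.11, *TIF1* 0.17 and *TIF2* 0.20. A change of scaling shifts all genes by nearly the same amount, so it could not test this order or these distances. The TE changes of *DED1*, *DBP1* and *TIF3* lay below the median change of these cells, and those of *TIF1* and *TIF2* above it. Fits that left out a culture called 0 or 1 member, with *DED1* at −0.31 to −0.23 and *DBP1* at −0.54 to −0.37, and the calls were lost without either WT culture or the second mutant culture for *DED1* and without the first WT or the first mutant culture for *DBP1*.

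**Figure D4:**
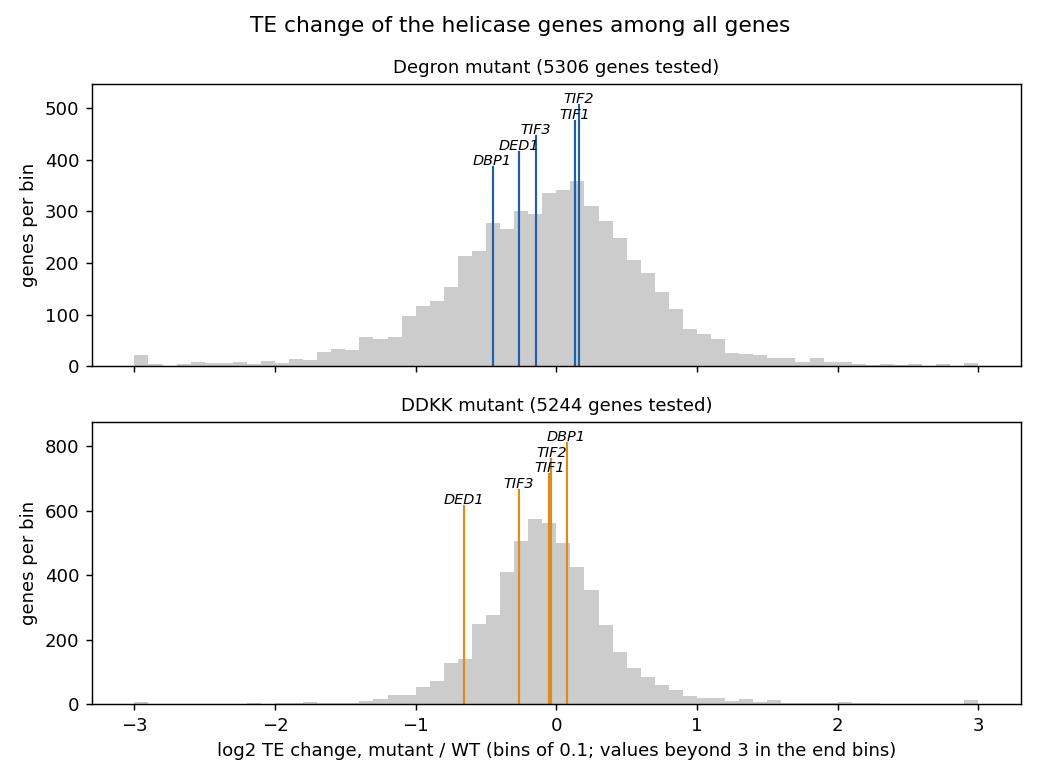
Distribution of ∆TE_rel (log2) over all genes tested in each background, 5306 in Degron and 5244 in DDKK, with the 5 members marked by lines. The members lie near the centre in *eIF3a/b Degron* cells, between −0.45 and 0.16, and in *eIF3i DDKK* cells *DED1* lies in the lower tail at −0.66.

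The comparison of *eIF3i DDKK* with its WT asks the same of cells that lose the eIF3i and eIF3g subunits from the complex. Here *DED1* was the only member to pass a test in the fit of all 8 libraries, with lower mRNA and lower footprints. *DED1* mRNA was 326 and 304 RPKM in the WT cultures and 231 and 196 in the mutant cultures, with 6573 and 4319 reads (WT) against 2497 and 1736 (mutant). *DED1* footprints were 638 and 560 RPKM in WT and 292 and 223 in the mutant, on 26544 and 21606 against 3060 and 2055 reads. In both assays each mutant culture lay below each WT culture, a separation in one direction or the other that 67.2% of all genes showed in mRNA and 77.7% in footprints, and the lower mutant value was that of the second culture.

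The log2 change of *DED1* mRNA was −0.56 (SE 0.17, adjusted p = 0.0351 by edgeR), the 1 member called in mRNA where 28.5% of all genes were called (16.5% higher and 12% lower). This call was lost when libraries were scaled by total reads alone (−0.39), and without the first WT culture (adjusted p = 0.302 by edgeR) or the second (0.193). The log2 change of *DED1* footprints was −1.22 (SE 0.17, adjusted p = 4.40e-04 by edgeR), again the 1 member called, where 52.4% of all genes were called (26.2% higher and 26.2% lower). The footprint call held in every alternative run, with changes from −1.43 to −0.92. The footprint level of the mutant was 0.43 of that of WT.

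The fall in *DED1* footprints was larger than the fall in its mRNA, and the TE of *DED1* was 1.96 and 1.84 in the WT cultures and 1.26 and 1.14 in the mutant cultures. The ∆TE_rel of −0.66 (SE 0.24, 95% interval −1.20 to −0.12) had an unadjusted p of 0.0218 and an adjusted p of 0.160 by edgeR, so it did not pass the threshold, and 8.14% of genes had a lower value. No member passed the TE test by edgeR in the main fit, which did not pair footprints with mRNA by culture. In that fit 4.02% of all genes were called (1.14% higher and 2.88% lower), and 1 member had an unadjusted p under 0.05. DESeq2 also called 0 members. With each culture as a block, which makes that pairing, *DED1* passed (−0.66, adjusted p = 0.00710 by edgeR), so its missing call depends on the unpaired model. Over the alternatives the ∆TE_rel of *DED1* stayed between −0.74 and −0.53, with adjusted p from 0.00710 to 0.781 by the tool of each alternative. It passed the test without the first mutant culture (−0.74, adjusted p = 0.0422 by edgeR) and with replicates or cultures as blocks. Between its WT and mutant cultures *DED1* TE did not overlap, as in 60.4% of all genes.

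The other 4 members showed no change that passed a test in that fit of *eIF3i DDKK* cells. *TIF1* mRNA was 1020 and 859 RPKM in WT and 966 and 773 in the mutant (log2 change −0.11, SE 0.18), and *TIF1* footprints were 1547 and 1427 in WT and 1496 and 1161 in the mutant (−0.16, SE 0.18). The cultures overlapped in both assays, and the second culture was the lower one in each strain. *TIF1* TE was 1.52 and 1.66 in WT and 1.55 and 1.50 in the mutant, and its ∆TE_rel was −0.050 with a 95% interval of −0.63 to 0.53 (adjusted p = 0.938 by edgeR), which is wide enough to hold the change seen in *eIF3a/b Degron* cells. *TIF2* had a ∆TE_rel of −0.035 with an interval of −0.61 to 0.54, and both values turned positive under other scalings, to between 0.028 and 0.095.

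*TIF3* mRNA was 111 and 127 RPKM in WT and 127 and 129 in the mutant, where the mutant values lay just above the WT values (log2 change 0.11, adjusted p = 0.630 by edgeR). *TIF3* footprints were 416 and 331 RPKM in WT and 361 and 307 in the mutant, which overlap (−0.16, adjusted p = 0.405 by edgeR). Its ∆TE_rel was −0.27 with a 95% interval of −0.76 to 0.23, and its TE was 3.76 and 2.61 in WT and 2.84 and 2.39 in the mutant, with the WT cultures further apart than the means of WT and mutant. *DBP1* was thinly covered in this background, with 194 and 156 reads of mRNA (WT) and 81 and 84 (mutant). Its mRNA was 9.42 and 10.7 RPKM in WT and 7.33 and 9.27 in the mutant (log2 change −0.28, SE 0.28), and its footprints were 13.1 and 12.0 in WT and 7.47 and 14.4 in the mutant. *DBP1* TE was 1.39 and 1.12 in WT and 1.02 and 1.55 in the mutant. The mutant cultures thus stood on either side of both WT cultures in footprints (log2 change −0.21 with both, and −0.75 without the second mutant culture, adjusted p = 0.00895 by edgeR), and the ∆TE_rel of *DBP1*, 0.073, has an interval of −0.77 to 0.91 that does not resolve a change of the size seen in *eIF3a/b Degron* cells.

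The mutants were compared directly by the difference of their ∆TE_rel (Degron minus DDKK) in a fit of all 16 libraries. There the rest of the strain genotype, medium, temperature and time of shift cannot be told apart from the mutation. No member differed, by edgeR or by DESeq2, and 0 had an unadjusted p under 0.05 by edgeR, where 3.67% of the 5228 genes tested were called (1.89% higher and 1.78% lower). The difference was 0.42 for *DED1* (SE 0.25, 95% interval −0.12 to 0.96, adjusted p = 0.373 by edgeR) and −0.49 for *DBP1* (SE 0.42, adjusted p = 0.569 by edgeR). It was 0.21 for *TIF1*, 0.23 for *TIF2* and 0.15 for *TIF3*. *DED1* was thus the lower one in *eIF3i DDKK* cells and *DBP1* the lower one in *eIF3a/b Degron* cells, but neither difference was resolved.

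The ratio of *DED1* to *DBP1* footprints summarises how the paralogs moved. It was 17.0 in the Degron WT and 40.9 in the *eIF3a/b Degron* mutant, and 47.8 in the DDKK WT and 23.5 in the *eIF3i DDKK* mutant. The means hide a wide spread in that last mutant, whose cultures gave 39.1 and 15.4, against 48.6 and 46.8 in their WT, 46.4 and 36.2 in the *eIF3a/b Degron* mutant and 15.9 and 18.1 in its WT. The cultures of mutant and WT did not overlap in either background, with the mutant higher in the Degron and lower in the DDKK background. Such a separation was common, since 90.8% (Degron) and 77.7% (DDKK) of all genes taken singly showed it in footprints. The ratio in the *eIF3i DDKK* mutant rests on 80 and 136 *DBP1* footprint reads. The footprint ratio of *TIF1* alone, without *TIF2*, to *TIF3* was 3.52 in WT and 3.58 in the mutant of the Degron background by mean RPKM. Its cultures gave 3.43 and 3.62 in that WT and 3.66 and 3.50 in that mutant. In the DDKK background it was 3.98 in each strain, with cultures at 3.72 and 4.31 in WT and 4.14 and 3.78 in the mutant. The mRNA ratio of *TIF1* to *TIF3* fell in the Degron background, from 7.15 and 7.29 in WT to 6.10 and 6.01 in the mutant. In the DDKK background it overlapped (9.21 and 6.78 in WT, 7.59 and 6.01 in the mutant). In footprints *TIF1* was 3.20 times *DED1* in the Degron WT and 5.07 times in the mutant, and 2.48 times in the DDKK WT and 5.16 times in the mutant.

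The 22 other DEAD-box helicases of yeast, most of which serve ribosome assembly or splicing, were mostly called higher in *eIF3a/b Degron* cells, and no test compared them with the members. In mRNA 18 of the 22 rose and 3 fell (median log2 change 0.87, against 0.12 for all genes), where 44.3% of all genes were called higher and 30.8% lower. In footprints 18 rose and 4 fell (median 1.25 against 0.0050), where 41.8% of all genes were called higher and 41.3% lower. In TE 14 rose and 5 fell (median 0.41 against −0.036 for all genes), where 26.8% of all genes were called higher and 33.1% lower. With scaling by total reads alone, which moved the median of all genes to 0.28, 17 rose and 3 fell (median 0.72). The TE changes of the 4 helicase genes among the members, −0.45 to 0.16, lie inside the range of these 22 genes, −1.11 to 1.39.

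*DBP2*, which encodes a nuclear helicase that acts on newly made mRNA, had the highest ∆TE_rel of the list in *eIF3a/b Degron* cells. Its footprints were 24.0 and 28.7 RPKM in WT and 154 and 141 in the mutant, and its mRNA was 68.7 and 65.7 in WT and 157 and 128.4 in the mutant. Its ∆TE_rel was 1.39 (SE 0.12, adjusted p = 2.94e-09 by edgeR). *DHH1*, which encodes a helicase of mRNA decapping and translational repression, had the lowest, with footprints of 123 and 118 RPKM in WT and 46.5 and 38.4 in the mutant and a ∆TE_rel of −1.11 (SE 0.11, adjusted p = 2.01e-08 by edgeR). Both extremes lie outside the range of the members in TE.

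In *eIF3i DDKK* cells none of the 22 passed the TE test by edgeR or DESeq2, with 3 at an unadjusted p under 0.05 by edgeR (2 were called lower without the first mutant culture and 2 without the second), and the median was −0.22 against −0.084 for all genes. The main fit called 4.02% of all genes in TE by edgeR, so none of 22 lies near that share. The highest ∆TE_rel was 0.25 for *DBP8*, a helicase gene of ribosome assembly, and the lowest was −0.90 for *DBP2* (SE 0.47, adjusted p = 0.318 by edgeR). *DBP2* footprints in that mutant were 15.8 and 6.48 RPKM, so its cultures differed widely. In mRNA 1 rose (*RRP3*, which encodes a helicase of rRNA processing, 0.67) and 1 fell (*DHH1*, −0.53), where 16.5% of all genes were called higher and 12% lower. In footprints *RRP3* rose while 5 fell, where 26.2% of all genes were called in each direction. With total reads alone, which moved the median footprint change of all genes from 0.0075 to 0.31, 5 rose and 3 fell, and leaving out a culture gave 0 higher and 2 lower (without the first WT culture), 1 and 3 (the second WT), 1 and 8 (the first mutant) and 4 and 5 (the second mutant). The fallers in footprints were *DBP2* (−1.24), *DHH1* (−1.16), *MSS116* (−1.04), *SUB2* (−0.68) and *MRH4* (−0.61), and *DED1* with −1.22 was close to the lowest of them. Between the mutants ∆TE_rel differed for 3.67% of all genes tested by edgeR, and for 3 of the 22, *DBP2* (2.33), *FAL1* (0.99) and *PRP5* (0.81). DESeq2 called 6 of the 22. These calls were not stable, with 1 under scaling by total reads, 0 at an adjusted p under 0.01, 0 without any of the 4 Degron cultures or either DDKK WT culture, and 7 without either DDKK mutant culture.

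**Figure D5:**
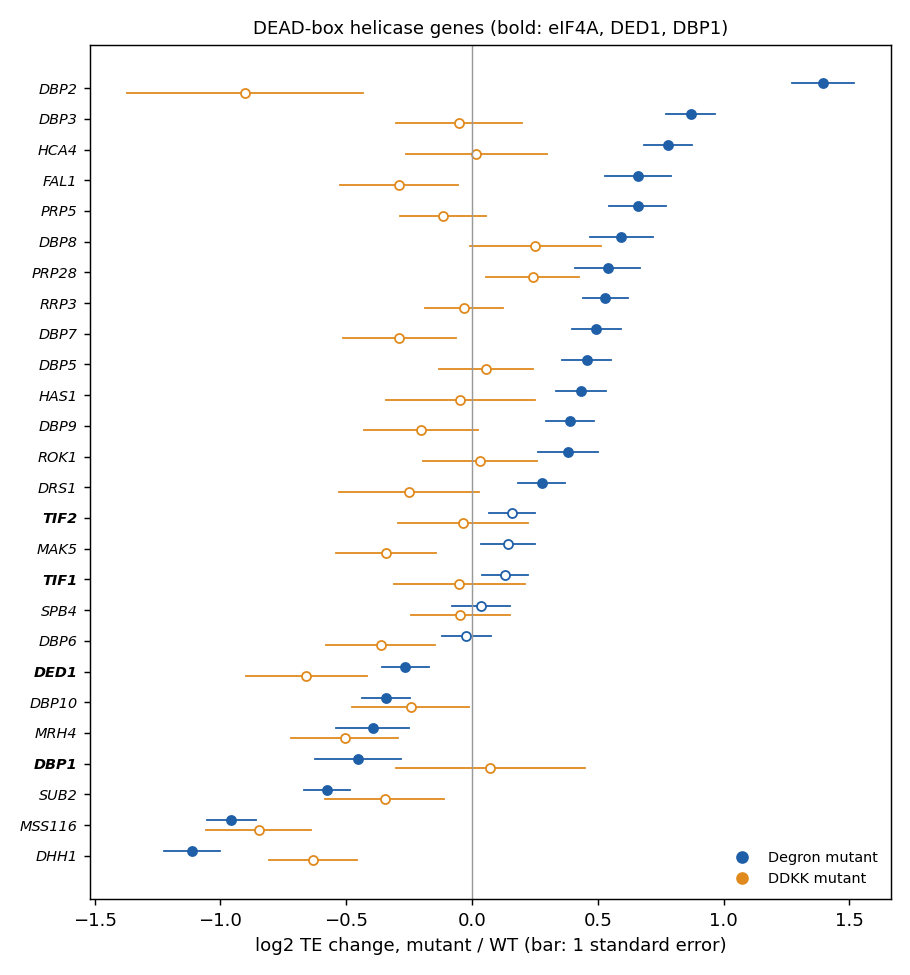
∆TE_rel (log2) of the 4 helicase genes among the members and of the 22 other DEAD-box helicase genes in each mutant, with bars of 1 standard error and filled points past the test. In *eIF3a/b Degron* cells the list runs from −1.11 (*DHH1*) to 1.39 (*DBP2*), with the members between −0.45 and 0.16.

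Another list held 6 genes for proteins that act at the cap or the poly(A) tail of mRNAs. Of these, *PAB1* (the poly(A)-binding protein, −1.30) and the eIF4G genes *TIF4632* (−0.81) and *TIF4631* (−0.38) fell in TE in *eIF3a/b Degron* cells. The genes *CDC33* (eIF4E, −0.029), *CAF20* (−0.022) and *EAP1* (−0.0044), the last pair for eIF4E-binding proteins, did not pass the test. Calling 3 of 6 is near the 59.8% called among all genes. With scaling by total reads alone, which moved the median of all genes to 0.28, 3 of the 6 rose and 2 fell. The median of the 6 relative to that of all genes was −0.17 under either scaling, a distance that a change of scaling leaves nearly fixed. For *eIF3i DDKK* cells the main fit called only 4.02% of all genes in TE by edgeR. In *eIF3i DDKK* cells none of the 6 passed the TE test by edgeR or DESeq2, with 2 at an unadjusted p under 0.05 by edgeR and 2 called lower without the first mutant culture, and the values were −0.59 for *TIF4632*, −0.56 for *PAB1* and for *TIF4631*, −0.18 for *CDC33*, −0.11 for *EAP1* and −0.0077 for *CAF20*.

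The genes whose pattern was most like that of each member were found by the Euclidean distance over 4 fitted log2 changes (mRNA and footprints in each background) among 5228 genes. *TIF1* and *TIF2* were nearest to each other (distance 0.052), followed for both by *MMS1*, a ubiquitin ligase gene of DNA repair, and *SMC2*, a condensin gene (0.083 to 0.12). *TIF3* lay nearest to *CAF130* (a Ccr4-Not subunit gene, 0.095), *TRM13* (a tRNA methyltransferase gene, 0.12) and *NUT1* (a Mediator subunit gene, 0.13). *DED1* had 2 amino acid biosynthesis genes as its nearest, *PRO1* (0.15) and *HIS4* (0.21), and then *GAP1* (the general amino acid permease gene, 0.23). *DBP1* lay nearest to *ATG9* (an autophagy gene, 0.19), *ZIM17* (a mitochondrial import gene, 0.19) and *GAL3* (a galactose sensor gene, 0.20). *HIS4* had changes of 0.025 in mRNA and −0.14 in footprints in *eIF3a/b Degron* cells and −0.74 and −1.30 in *eIF3i DDKK* cells, beside 0.10, −0.17, −0.56 and −1.22 for *DED1*. The distance is a description of likeness in these libraries.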

How the data were processed

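The authors deposited, for each background, raw read counts per gene and library, not normalized, for each coding sequence trimmed by 15 codons at its start and 5 at its end, with the trimmed length. The submitters' processing notes name CASAVA 1.8, Bowtie2 2.2.6.0, TopHat2 2.1.0, DESeq2 and sacCer3. How reads matching several genes were counted is not given in the sources used here. A deposited table of the authors' own log2 TE values, log2 changes and p-values was not used.

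The tests used edgeR 4.0.16 under R 4.3.3 (quasi-likelihood, TMM over the 8 libraries of a background, 1 mean per strain and assay), for genes with at least 128 reads over the 4 mRNA libraries. p-values were adjusted over all genes tested (Benjamini-Hochberg), with 0.05 as the threshold. Standard errors were derived from the F statistic and the fitted log2 change, and 95% intervals use the t quantile. RPKM values use TMM-scaled library sizes and the counted length. Depth per library is given with the results. The WT and mutant samples are biological replicates per the paper's methods, with 2 per strain.

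Tested on simulated data, the model was given 200 genes changed 2-fold in TE. At the Degron dispersion (5304 genes) it recovered 185 of the 199 that passed the filter, with 8 false calls of 193. At the DDKK dispersion (5239 genes) it recovered 129 of 200, with 5 false calls of 134. The simulated libraries were independent and most of their genes unchanged, whereas 59.8% of all genes were called in TE in *eIF3a/b Degron* cells. These rates need not hold for the real libraries. Alternatives were DESeq2 1.42.0, scaling by total reads with and without YDR445C, TMM within each assay, other filters, an adjusted p under 0.01, replicate or culture blocks, *TIF1* and *TIF2* reads summed, and fits without single cultures. The rule for naming genes took the members, their 3 nearest genes, and the highest and lowest TE change of each list in each background. It also took every gene of the cap and poly(A) tail list. Other genes of the helicase list that were called in *eIF3i DDKK* cells or differed between mutants were named after their values were seen. The members and lists were chosen with earlier results of these data known. Sequences were analysed with Python 3.11.15 and Biopython 1.88, and plots were drawn with matplotlib 3.10.9.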

Additional observations from a re-analysis of the deposited data

How the results depend on the processing

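Leaving out a culture gave 0 to 1 members called in TE and 4 to 5 in footprints in *eIF3a/b Degron* cells, and 0 to 1 in TE, 0 to 1 in mRNA and 1 to 2 in footprints in *eIF3i DDKK* cells, while mRNA in *eIF3a/b Degron* cells kept 4 and the difference between mutants 0. The member called beside *DED1* in footprints of *eIF3i DDKK* cells was *DBP1*, without the second mutant culture (−0.75, adjusted p = 0.00895 by edgeR), and its change ran from −0.75 to 0.20 over these fits. DESeq2 called 1 member in TE in *eIF3a/b Degron* cells, and an adjusted p under 0.01 left 0 there and 0 in mRNA in *eIF3i DDKK* cells, where both scalings by total reads also left 0.

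The same replicate numbers of WT and mutant deviated together in the DDKK background (correlation 0.218 in mRNA and 0.433 in footprints). They did not in the Degron background (0.011 and −0.023), and the labels do not say that a number marks a shared batch. Within a strain, footprints and mRNA of equal replicate number also deviated together in the DDKK background (correlation 0.300 in WT and 0.473 in the mutant). In the Degron background these correlations were lower (0.139 in WT and 0.0481 in the mutant). The main fit had no term for this pairing, while the culture block has one. With the replicate number as a block, 1 member, *DED1*, passed the TE test in *eIF3i DDKK* cells (−0.66, adjusted p = 0.0198 by edgeR), as it did with each culture as a block (1 member, adjusted p = 0.00710 by edgeR). Of the 22 other DEAD-box helicases 3 were then called lower with either block. Of the 6 genes of the cap and poly(A) tail list, 2 were called lower with the replicate block and 3 with the culture block. The replicate block called 7 of the 22 in the difference between mutants, against 3 without it, and 8 lower in footprints of *eIF3i DDKK* cells, against 5. In *eIF3a/b Degron* cells the culture block added *TIF2* to the members called in TE (0.16, adjusted p = 0.0311 by edgeR), so that 1 rose and 2 fell, and the replicate block left the calls of the members as they were. With no filter on low counts 1 of the 22 was called lower in TE in *eIF3i DDKK* cells. Over all genes the calls in TE there went from 211 to 588 with the replicate block and 902 with the culture block.

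Scaling by total reads turned ∆TE_rel in *eIF3a/b Degron* cells to 0.16 for *TIF3* and 0.047 for *DED1*, and the *DED1* footprint change to 0.069, and without YDR445C the values were 0.12, 0.0035 and 0.069. TMM within each assay turned *DED1* mRNA there to −0.023. In *eIF3i DDKK* cells the ∆TE_rel of *TIF1* and *TIF2* turned to 0.029 and 0.045 with DESeq2, 0.067 and 0.083 with total reads, 0.079 and 0.095 without YDR445C, and 0.028 and 0.044 with TMM within each assay. Total reads turned their mRNA changes to 0.071 and 0.090 (without YDR445C 0.059 and 0.077), and the footprint changes of *TIF1*, *TIF2*, *TIF3* and *DBP1* to 0.14, 0.17, 0.14 and 0.11, the same with and without YDR445C. Leaving out a culture in *eIF3i DDKK* cells gave footprint changes of −0.36 to 0.0099 for *TIF1*, −0.32 to 0.039 for *TIF2* and −0.32 to 0.013 for *TIF3*, mRNA changes of −0.28 to 0.020 for *TIF1* and −0.26 to 0.036 for *TIF2*, ∆TE_rel of −0.12 to 0.011 for *TIF1*, −0.10 to 0.027 for *TIF2* and −0.28 to 0.31 for *DBP1*, and a difference between mutants of −0.13 to 0.43 for *TIF3*. None of the values that changed sign passed the test by the tool of its fit. The cause of these shifts was not tested.

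Counts over all genes moved most in the DDKK background, where TE calls were 114 with total reads, 31 at an adjusted p under 0.01 and 3 to 741 without single cultures. mRNA calls there went from 1497 to 613 at an adjusted p under 0.01 and 166 to 2028 without single cultures, and footprint calls from 2748 to 1283 to 3183. Calls of the difference between mutants went from 192 to 304 with DESeq2, 94 with total reads, 423 with the replicate block, 23 at an adjusted p under 0.01 and 3 to 694 without single cultures. Having 2 cultures per strain and the low *DBP1* counts limit what these tests resolve.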
